A study of Penicillium oxalicum with 18 samples.

Results

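Of 9176 gene models measured in Penicillium oxalicum, 156 were abundant in every strain and medium of the study and varied little between them. They were chosen on their measured values. FPKM, which relate a gene's fragments to its length and to the size of the library, were averaged over the 3 libraries of each of the 6 groups. A gene was taken when all 6 group means were 100 FPKM or more and the highest mean was at most 1.5 times the lowest. The level alone was met by 878 gene models, so 722 other genes above this level were left as the closest set for comparison.

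Penicillium oxalicum is a filamentous fungus that secretes enzymes able to break down plant cell walls. The strains were the wild type 114-2 and a vib1 deletion strain. Both were pre-cultured from germination on 2% glucose (24 h, 30 °C), and their mycelia then spent 24 h in the test medium. The groups were wild type in 2% glucose, wild type in 2% N-acetylglucosamine (GlcNAc), wild type in 1% bran plus 1% microcrystalline cellulose, and the deletion strain in each of the same media, with 3 libraries a group and 18 in all. The labels do not say whether the deletion strain was 1 isolate or several, or whether the replicates were separate cultures, so the spread between replicates may be technical.

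Genes whose transcripts stay at a similar level whatever the cell is doing are often called housekeeping genes, and genes of basic functions such as protein synthesis, the cytoskeleton and central metabolism are commonly among them. Genes of this kind serve as internal references in RT-qPCR, where a target is expressed relative to a transcript taken as constant. Vib1, which regulates transcription, was described in Neurospora, where the cell death that follows fusion of incompatible hyphae, and the output of secreted enzymes, depend on it. The identifiers of these genes could not be paired with names or products, since 0 of the 9176 matched the 9964 rows of the annotation available here, which belongs to another strain (assembly ASM172317v3, strain HP7-1). The genes are therefore given by identifier, without roles or sequences, and the deletion of vib1 could not be checked from its own transcript.

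Library sums lay between 915811 and 1119469 FPKM, and the read depth is unknown. No abundant steady gene was listed at 0 in any library. Together they made up 5.20% to 6.70% of the summed FPKM of a library. This share was 5.20% to 5.63% in all 9 wild-type libraries and 5.40% to 5.53% in the deletion strain with bran plus cellulose. It was 6.08% to 6.31% in the deletion strain in glucose and 6.58% to 6.70% in the deletion strain in GlcNAc. The libraries of the deletion strain on either sugar thus lay above all others in this share, and they had the lowest library sums. Their sums were 915811 to 945940 FPKM, against 998260 FPKM or more in the other libraries. In GlcNAc the steady genes summed to 61696 to 62251 FPKM in the deletion strain and 60601 to 62191 FPKM in wild type. In glucose they summed to 55679 to 58545 FPKM and 52488 to 54485 FPKM. The other 722 abundant genes took 48.7% to 50.4% of the deletion libraries in glucose, against 52.5% to 58.0% elsewhere. Because FPKM are relative to the size of a library, a change in total mRNA cannot be told apart from a change in other transcripts. Fewer cells of a type and less RNA per cell cannot be told apart either.

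**Figure D1:**
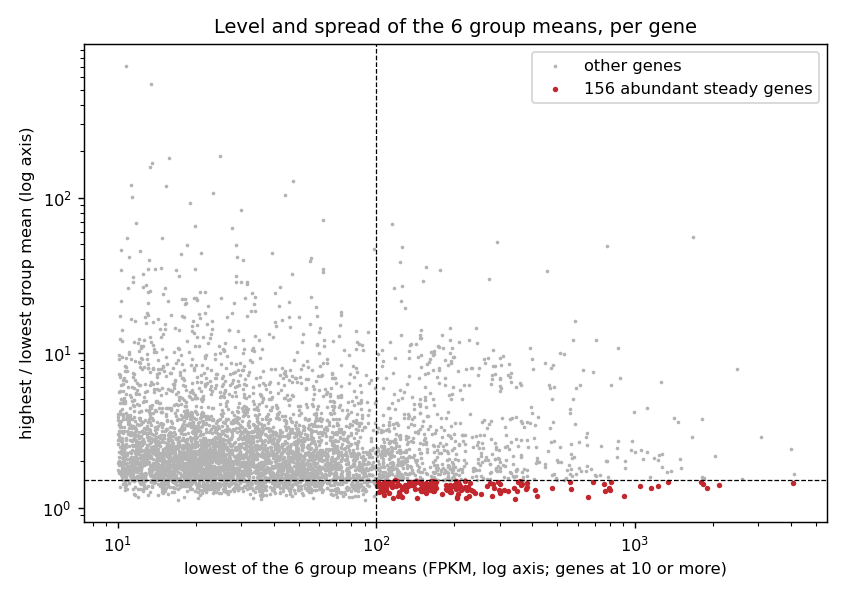
Lowest of the 6 group means in FPKM (horizontal, log axis) against the ratio of the highest to the lowest group mean (vertical, log axis) for gene models whose lowest mean was 10 FPKM or more. The 156 abundant steady genes (red) fill the corner at 100 FPKM or more and at most 1.5 times, and the dashed lines mark these limits.

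Most of the 156 genes were of moderate abundance. Their mean over the 6 groups ranged from 115 to 4669 FPKM with a median of 205 FPKM, and 76 of them were under 200 FPKM. The other abundant genes had a median of 327 FPKM and reached 61068 FPKM. Only 10 of the 156 exceeded 1000 FPKM, against 122 of the 722. Ratios of at most 1.5 were found at all levels, in 12.1% of the 2654 genes averaging 30 to 100 FPKM, in 11.9% of the 840 genes at 100 to 200 FPKM and in 11.7% of the 511 genes at 200 to 500 FPKM. At 500 to 1000 FPKM it was 5.71% of 175 genes, and above 1000 FPKM 6.41% of 156 genes. The median ratio was larger at higher levels, from 2.24 at 30 to 100 FPKM to 7.22 above 1000 FPKM.

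The most abundant of the steady genes was PDE_05327. In wild type it stood at 4298, 4443 and 4048 FPKM in glucose, at 5782, 6191 and 5726 FPKM in GlcNAc, and at 4423, 4359 and 4364 FPKM in bran plus cellulose. In the deletion strain it stood at 4230.4, 4665 and 5095 FPKM in glucose, at 4261, 5105 and 4757 FPKM in GlcNAc, and at 4209, 4396 and 3692 FPKM in bran plus cellulose. The 3 wild-type libraries in GlcNAc were above all 15 others, and the remaining groups overlapped. Its group means ran from 4099 ± 364 FPKM (SD, n = 3) in the deletion strain with bran plus cellulose to 5899.7 ± 254 FPKM in wild type in GlcNAc, a ratio of 1.44.

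PDE_04768 had the opposite order in wild type. Its wild-type values were 2608, 2584 and 2749 FPKM in glucose, 1774, 1819 and 1824 FPKM in GlcNAc, and 1735, 1799 and 1929 FPKM in bran plus cellulose. Its deletion-strain values were 2650.3, 2468 and 2427 FPKM in glucose, 2534, 2541 and 2621 FPKM in GlcNAc, and 2126, 2065 and 2105 FPKM in bran plus cellulose. The 6 wild-type libraries in GlcNAc and in bran plus cellulose were the lowest of the 18, and the deletion libraries in GlcNAc lay with those in glucose. The group means ran from 1806 ± 27.6 to 2647 ± 89.0 FPKM, a ratio of 1.47, with a within-group SD of only 0.049 log2 units.

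On the deposited scale, the other 3 of the 5 most abundant were highest in GlcNAc. None of these 5 genes kept a ratio of at most 1.5 on all scales tried, as given below. PDE_06934 averaged 2121 ± 166 FPKM in wild type in glucose, 2613 ± 40.9 FPKM in GlcNAc and 2468 ± 113 FPKM in bran plus cellulose, against 2602 ± 13.3, 2975 ± 192 and 2428 ± 80.4 FPKM in the deletion strain. PDE_02849 was lowest in wild type in glucose, at 1896 ± 123 FPKM, and highest in the deletion strain in GlcNAc, at 2549.6 ± 59.3 FPKM. The 3 libraries of the latter group (2602, 2485 and 2562 FPKM) were above all others. In wild type the means of PDE_02849 were 2126 ± 125 FPKM in GlcNAc and 2144 ± 120 FPKM in bran plus cellulose. PDE_01092 averaged 2612 ± 52.4 FPKM in wild type and 2379.8 ± 167 FPKM in the deletion strain in GlcNAc. In the other 4 groups its means were between 1837 ± 38.1 and 1885 ± 71.3 FPKM, and no library of these groups reached the lowest GlcNAc library, at 2215 FPKM.

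**Figure D2:**
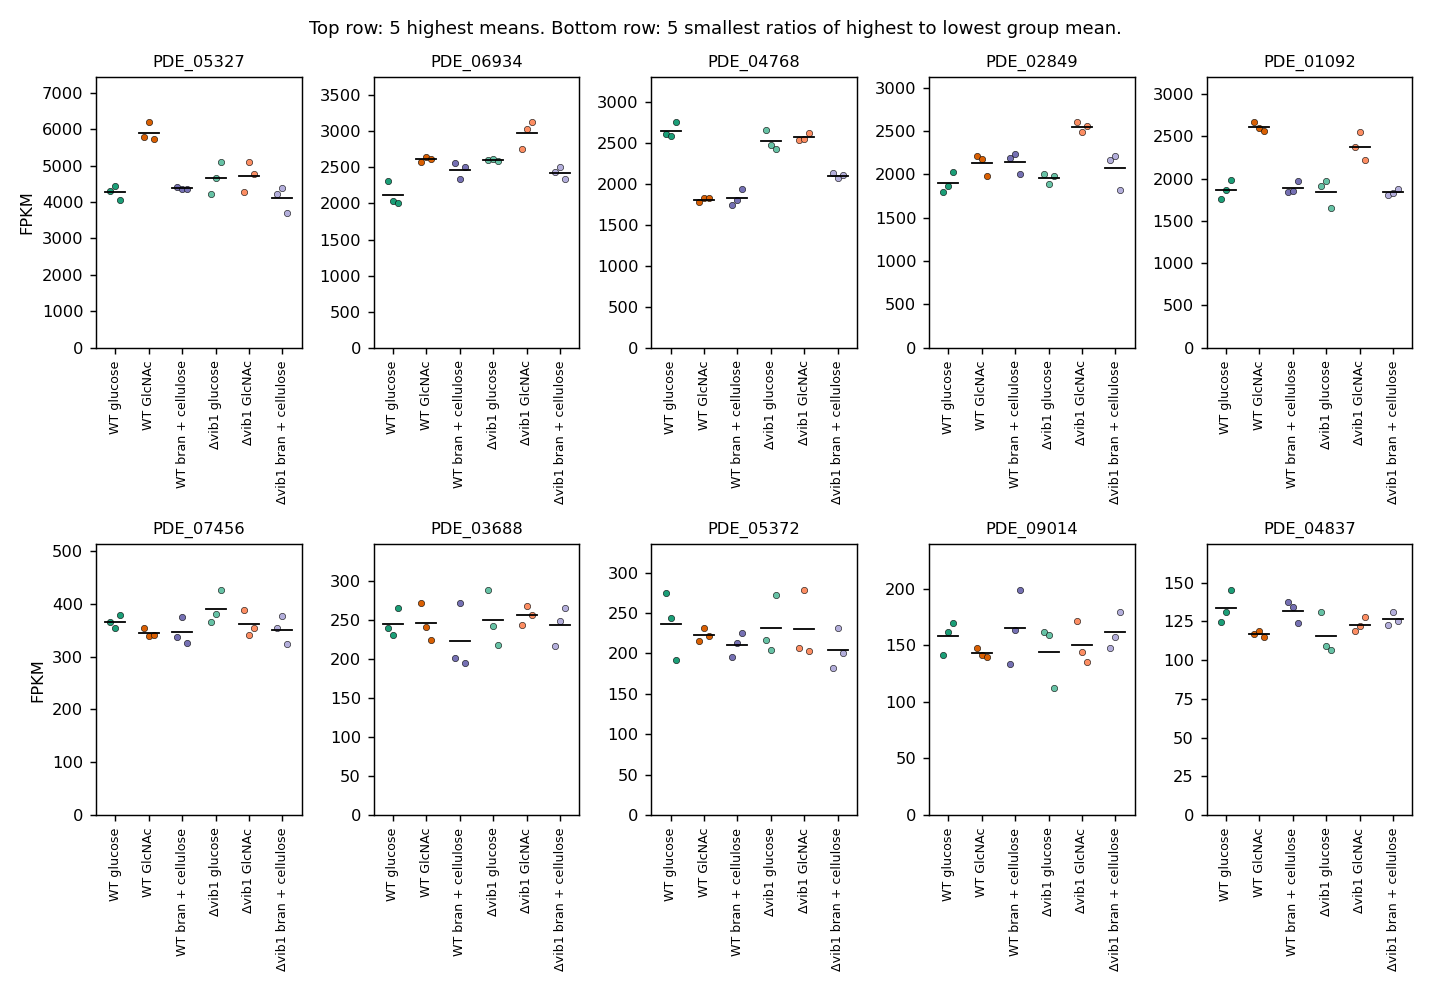
FPKM in each library of the 5 most abundant of the 156 genes (top) and the 5 with the smallest ratios of highest to lowest group mean (bottom). Points are the 3 libraries of a group, bars their means, and each vertical axis starts at 0; in the top row single groups stand apart, such as wild type in GlcNAc for PDE_05327, whereas in the bottom row most groups overlap.

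The smallest ratio of all 156 genes belonged to PDE_07456. In wild type its values were 365, 353 and 379 FPKM in glucose, 354, 338 and 341 FPKM in GlcNAc, and 338, 375 and 325 FPKM in bran plus cellulose. In the deletion strain they were 365, 380.2 and 427 FPKM in glucose, 389, 339.8 and 354 FPKM in GlcNAc, and 353, 376 and 323 FPKM in bran plus cellulose. All groups overlapped except the deletion strain in glucose, whose lowest library was above the 3 wild-type libraries in GlcNAc. The group means ran from 344 ± 8.41 to 391 ± 32.1 FPKM, a ratio of 1.13.

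The next smallest ratios went with larger differences between replicates. PDE_03688 (ratio 1.15) ranged from 223 ± 42.7 FPKM for wild type with bran plus cellulose to 256 ± 12.7 FPKM in the deletion strain in GlcNAc, while its single libraries ran from 195 to 289 FPKM. PDE_05372 (1.16) ranged between 205 ± 25.02 and 237 ± 42.3 FPKM, and PDE_09014 (1.16) between 143 ± 3.996 and 166 ± 32.9 FPKM. For these 3 genes the SD within a group, 0.17 to 0.20 log2 units, was larger than for the typical abundant steady gene. PDE_04837 (1.16) combined a small ratio with a tighter spread, from 116 ± 13.4 FPKM in the deletion strain in glucose to 134 ± 10.6 FPKM in wild type in glucose. In all, 13 of the 156 genes had a ratio of 1.2 or less and the median was 1.36.

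The limits themselves cut through a continuous range of values. Just inside the limit on the ratio were PDE_05857 (lowest and highest group mean 118 and 177 FPKM, ratio 1.498), PDE_04483 (165 and 248 FPKM, 1.496) and PDE_09083 (204 and 304 FPKM, 1.492). Just outside were PDE_08686 (182 and 272 FPKM, marginally over 1.5), PDE_01924 (245 and 367 FPKM, 1.501) and PDE_01314 (368 and 553 FPKM, 1.502). Just inside the limit on the level, PDE_00429, PDE_03546 and PDE_08926 had lowest means of 100.2, 101.4 and 102.8 FPKM. Just outside it, PDE_09860, PDE_09841 and PDE_06840 had lowest means of 99.5, 98.4 and 98.2 FPKM.

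Within the range allowed by the rule, the highest mean was found most often in GlcNAc. It was in wild type in GlcNAc for 53 genes and in the deletion strain in GlcNAc for 49, against 19 in the deletion strain in glucose, 13 in wild type in glucose, 13 in the deletion strain and 9 in wild type in bran plus cellulose. The 2 GlcNAc groups thus held 34.0% and 31.4% of the highest means, close to the 32.3% and 29.4% of the other abundant genes. The lowest mean was in wild type in glucose for 50 genes, followed by wild type in bran plus cellulose (29), the deletion strain in glucose (26), in GlcNAc (18) and in bran plus cellulose (17), and wild type in GlcNAc (16). Wild type in glucose held 32.1% of these lowest means, against 10.1% in the other abundant genes. In 56 of the 156 genes (35.9%) GlcNAc gave the highest mean of the 3 media in both strains, as it did in 120 of the other 722 abundant genes (16.6%). After median-ratio rescaling these shares were 16.0% (25 genes) and 13.0%, at equal library totals 30.1% (47 genes) and 14.96%, and after quantile normalization 40.4% (63 genes) and 19.9%. The variance of the 6 log2 group means, on the deposited scale, was split by strain, medium and their combination. The medians were 12.7%, 48.6% and 25.5% in the steady genes, and 24.1%, 45.5% and 25.1% in the other abundant genes. With 2 strains but 3 media, the strain share rests on fewer degrees of freedom than the others, so the shares are not directly comparable with each other. The medium was the largest of the 3 shares in 89 of the 156 genes (57.1%), close to the 53.0% of the other abundant genes.

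**Figure D3:**
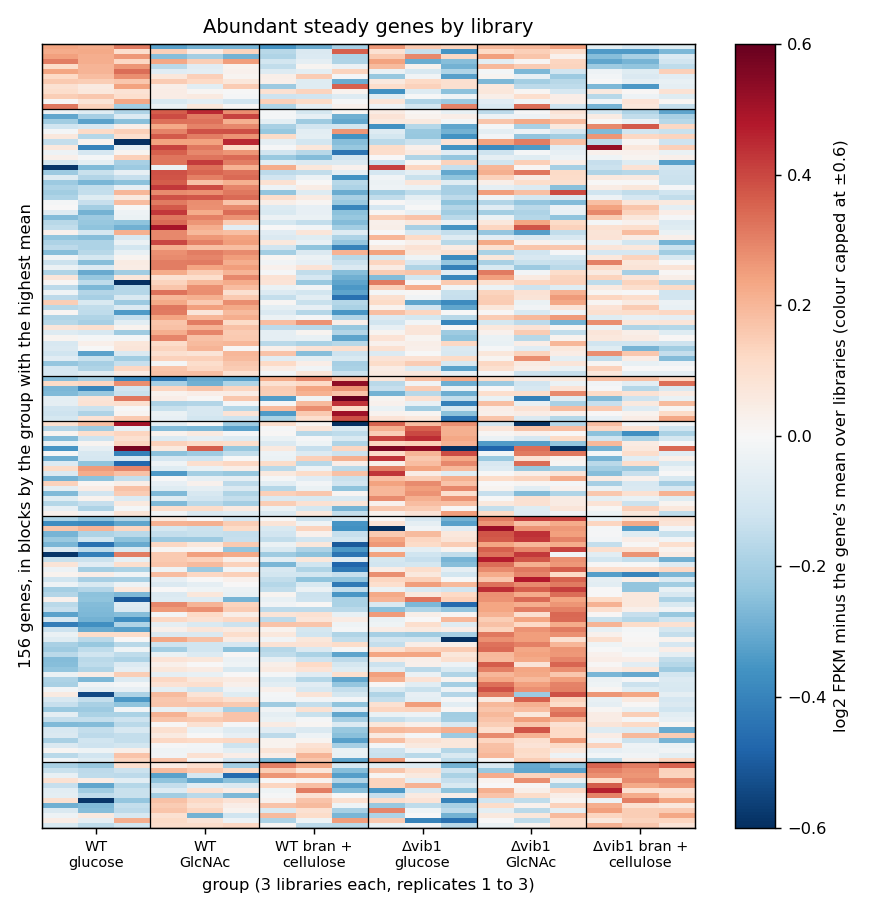
Log2 FPKM of each of the 156 genes (rows) in each library (columns, 3 per group) relative to the gene's mean over the 18 libraries, with rows in blocks by the group that held the highest mean. The 2 large blocks belong to wild type and the deletion strain in GlcNAc, with 53 and 49 genes.

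This order depended on how the libraries were put on one scale. As deposited, the median log2 difference between deletion and wild type over all 8455 genes tested was 0.18 in glucose, 0.20 in GlcNAc and 0.01 in bran plus cellulose, so a typical gene of the deletion strain stood higher on either sugar. When each library was divided by its median ratio to the geometric mean of all libraries, which sets the median gene level, the highest mean was in wild type in GlcNAc for 80 of the 156 genes and in the deletion strain in GlcNAc for 14. The deletion strain in GlcNAc then held the lowest mean of 55 genes, and wild type in glucose that of 9 in place of 50. When each library was brought to the same FPKM total instead, the counts of highest means were 19 and 83. Quantile normalization gave 39 and 74. At equal totals and after quantile normalization, wild type in glucose held the lowest mean of 54 and 48 genes. Relative to the median gene, the steady genes thus had their highest mean mostly in wild type in GlcNAc, and relative to the library total mostly in the deletion strain in GlcNAc.

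**Figure D4:**
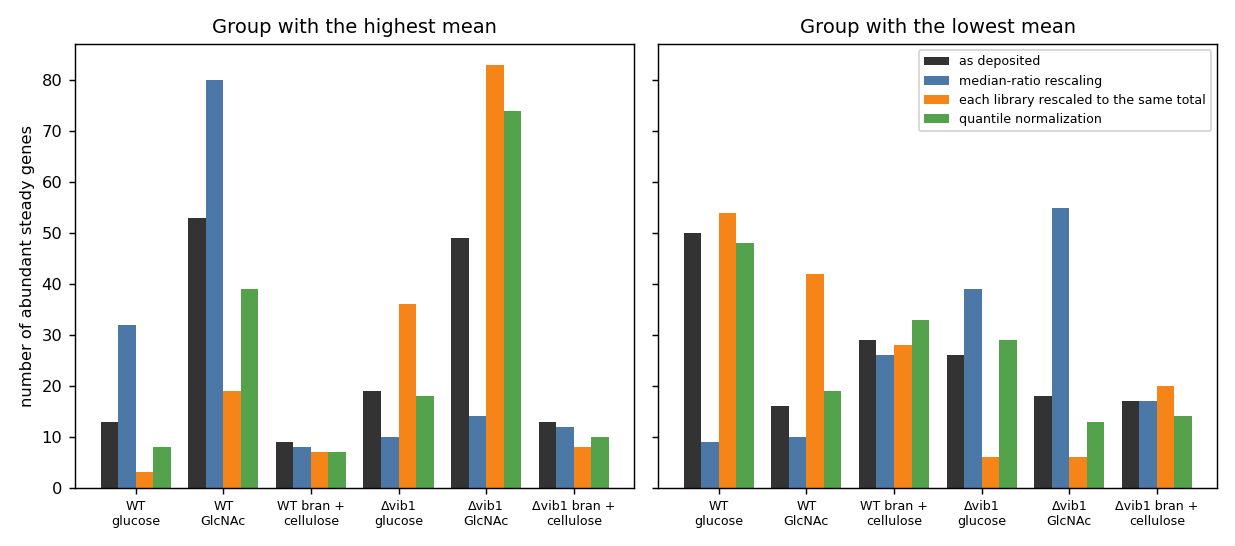
Number of the 156 genes whose highest (left) or lowest (right) mean lay in each group, on the deposited FPKM scale and after each of 3 rescalings. The bars for GlcNAc change most: 49 genes were highest in the deletion strain in GlcNAc as deposited, 14 after median-ratio rescaling and 83 at equal library totals.

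The comparisons between groups used the same means as the choice of the genes, so the counts that follow describe the 156 genes and nothing is read from their being lower than the share over all genes. Log2(FPKM + 1) was compared with limma, and a gene was called at a Benjamini-Hochberg adjusted p under 0.05 over all genes tested. A difference among the 6 groups was called for 135 of the 156, against 94.1% of the 8455 genes. The 21 genes without a call had ratios between 1.13 and 1.47. Their median within-group SD was 0.17 log2 units, against 0.095 in the 135 genes with a call.

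Between the strains in glucose, 66 of the 156 genes were called (64.8% of all genes tested), 52 with the higher level in the deletion strain and 14 with the lower (42.1% and 22.8% of all genes). The median log2 difference was 0.07. Relative to the median gene, after median-ratio rescaling, the split turned to 7 higher and 59 lower, against 2592 and 2626 of all genes tested. At equal library totals it was 80 higher and 3 lower, against 4210 and 1632. After quantile normalization it was 64 and 16, against 3160 and 2145. The largest differences in the group means were those of PDE_05697, at 1347 FPKM in wild type and 1927 FPKM in the deletion strain (log2 difference 0.52), and of PDE_03464, at 139.6 and 197 FPKM (0.50). In the other direction, PDE_01849 stood at 213 and 163 FPKM (−0.38) and PDE_00146 at 407 and 312 FPKM (−0.38).

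In GlcNAc, 77 genes were called (74.5% of all genes), 43 with the higher level in the deletion strain and 34 with the lower (44.8% and 29.7%), with a median of 0.02. The split was 8 higher and 85 lower after median-ratio rescaling, 84 and 8 at equal totals, and 61 and 28 after quantile normalization. Over all genes tested it was, in the same order, 3055 and 3213, 4480 and 2003, and 3382 and 2837. PDE_04834 was at 143 FPKM in wild type and 210.1 FPKM in the deletion strain (0.56), and PDE_04768 at 1806 and 2566 FPKM (0.51). PDE_05402 was at 246 and 169 FPKM (−0.54), and PDE_02994 at 1072 and 759 FPKM (−0.50).

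In bran plus cellulose, 19 genes were called (26.7% of all genes), 16 higher and 3 lower (13.2% and 13.5%), with a median of 0.07. Leaving out replicate 3 of wild type gave 6 calls in place of 19, with 8 without replicate 1 of the deletion strain and 3 without its replicate 2. No scaling moved this split by much, the lower side holding 3 to 6 genes. All genes tested split into 1210 and 1224 after median-ratio rescaling, 1071 and 1188 at equal totals, and 1363 and 1163 after quantile normalization. PDE_01564 was at 165 FPKM in wild type and 218 FPKM in the deletion strain (0.40), and PDE_03063 at 107 and 140.4 FPKM (0.39). PDE_00271 was at 133 and 103 FPKM (−0.37), and PDE_08117 at 184 and 143 FPKM (−0.37). In PDE_08117 replicate 3 of wild type stood apart, at 273 FPKM beside 125 and 155 FPKM. Neither PDE_08117 nor PDE_03063 was called for a difference among the 6 groups. Over the 3 media, 34 of the 156 genes had the higher mean in the deletion strain in each medium and 9 the lower one, which is 21.8% and 5.77%, against 18.01% and 20.4% of the other abundant genes. These numbers were 10 and 33 (6.41% and 21.2%) after median-ratio rescaling, against 11.5% and 25.8% of the other abundant genes. At equal totals they were 67 and 1 (42.9% and 0.641%), against 20.1% and 18.4%. After quantile normalization they were 47 and 9 (30.1% and 5.77%), against 22.7% and 14.5%. The direction thus depended on the scale.

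The other media were compared with glucose within each strain. For wild type in GlcNAc, 82 of the 156 were called (59.0% of all genes), 73 higher and 9 lower than in glucose (33.0% and 26.0%), with a median log2 difference of 0.19. The split was 60 and 17 after median-ratio rescaling, 47 and 24 at equal totals, and 74 and 9 after quantile normalization. Over all genes tested it was, in the same order, 2504 and 2501, 2250 and 2591, and 2856 and 2178. PDE_02973 had 120.0 FPKM in glucose and 177 FPKM in GlcNAc (0.56), PDE_02756 had 115 and 168 FPKM (0.55), and PDE_02341 had 271 and 193 FPKM (−0.49). PDE_04768, described above, had the largest difference downwards (−0.55).

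For wild type in bran plus cellulose, 32 genes were called (48.3% of all genes), 17 higher and 15 lower than in glucose (32.4% and 15.9%), with a median of 0.04. There were 21 calls without replicate 2 of the glucose libraries. The split was 6 and 41 after median-ratio rescaling, 18 and 13 at equal totals, and 16 and 14 after quantile normalization. All genes tested split, in the same order, into 1925 and 1916, 2851 and 1329, and 1971 and 1794. PDE_05857 had 123 FPKM in glucose and 177 FPKM in bran plus cellulose (0.52), and PDE_09171 had 185 and 258 FPKM (0.48). PDE_04768 (−0.54) and PDE_03077, at 302 and 225 FPKM (−0.42), lay at the other end. All comparisons with one glucose group share its 3 libraries.

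For the deletion strain, GlcNAc against glucose gave 57 calls (68.7% of all genes), 43 higher and 14 lower (41.8% and 27.0%). The median was 0.09. The split was 21 and 33 after median-ratio rescaling, 43 and 16 at equal totals, and 63 and 12 after quantile normalization. Over all genes tested it was, in the same order, 3062 and 2638, 3525 and 2326, and 3347 and 2452. PDE_01849 stood at 163 FPKM in glucose and 242 FPKM in GlcNAc (0.57) and PDE_04907 at 689 and 1006 FPKM (0.55). PDE_03077 stood at 302 and 206 FPKM (−0.55) and PDE_03974 at 164 and 119 FPKM (−0.46). Bran plus cellulose against glucose gave 48 calls (62.6% of all genes), 21 higher and 27 lower (28.4% and 34.1%), with a median of −0.0049. The split was 46 and 18 after median-ratio rescaling, 6 and 61 at equal totals, and 28 and 37 after quantile normalization. All genes tested split, in the same order, into 2628 and 2721, 2039 and 3554, and 2348 and 3097. PDE_01564 stood at 149 FPKM in glucose and 218 FPKM in bran plus cellulose (0.54), PDE_09914 at 118 and 164 FPKM (0.47), PDE_04753 at 224 and 156 FPKM (−0.52) and PDE_04052 at 188 and 133 FPKM (−0.50).

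Replicates of the steady genes lay close together. The pooled within-group SD of log2(FPKM + 1) had a median of 0.098 (quartiles 0.079 and 0.13), against 0.13 (0.096 and 0.20) in the other abundant genes. A large spread also moves group means apart, so the rule favours genes with a small one. The median SD within a group was smallest in wild type in GlcNAc (0.051) and largest in wild type in bran plus cellulose (0.105). The other abundant genes were tightest in that first group as well (0.059) and widest in the deletion strain in glucose (0.147). Among single libraries, replicate 3 of the wild-type libraries in bran plus cellulose lay farthest from its group means over the 156 genes, with a root mean square of 0.16 log2 units, followed by replicate 3 of the deletion strain in glucose (0.14).

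PDE_03076 had the smallest spread, 0.037 log2 units, with wild-type values of 171, 182 and 169 FPKM in glucose, 170.4, 165 and 162 FPKM in GlcNAc, and 169, 168 and 168 FPKM in bran plus cellulose. Its deletion-strain values were 218, 208 and 216 FPKM in glucose, 179, 191 and 186 FPKM in GlcNAc, and 173, 175 and 171 FPKM in bran plus cellulose. The 3 deletion libraries in glucose stood above all 15 others. PDE_07631 (0.041) and PDE_07694 (0.047) followed, the latter with 141 to 144 FPKM in wild type in GlcNAc, 136 to 146 FPKM in the deletion strain in GlcNAc and at most 122 FPKM elsewhere.

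At the other end, PDE_00848 met the rule although its replicates differed more than those of any other of the 156 genes (0.46 log2 units). In wild type it had 94.98, 117 and 181 FPKM in glucose, 127, 156 and 104 FPKM in GlcNAc, and 127, 111 and 133 FPKM in bran plus cellulose. In the deletion strain it had 179, 176 and 73.2 FPKM in glucose, 87.3, 153 and 72.3 FPKM in GlcNAc, and 99.8, 127 and 154 FPKM in bran plus cellulose. All groups overlapped, and its group means ran from 104 to 143 FPKM. PDE_08117 (0.27) and PDE_03063 (0.25) came next. Over single libraries the ratio of highest to lowest had a median of 1.56 in the 156 genes, was 1.5 or less in 58 and over 2 in 6, and reached 2.50 in PDE_00848. In 146 genes every one of the 18 libraries was at 100 FPKM or more.

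Because the rule used all libraries, steadiness was also measured in libraries that had no part in the choice. Genes were chosen by the same limits from 2 of the 3 replicate numbers, and the ratio of the highest to the lowest value was then taken over the 6 libraries with the remaining number. With replicate 1 left out, 151 genes were chosen, and their median ratio in the left-out libraries was 1.41, against 2.40 in the 713 other abundant genes. With replicate 2 left out, it was 1.40 in 158 chosen genes against 2.46 in 704. With replicate 3 left out, it was 1.45 in 157 chosen genes against 2.52 in 725.

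A ratio of at most 1.5 was kept in the left-out libraries by 72.8%, 74.7% and 59.9% of the chosen genes for numbers 1, 2 and 3, and was found in 6.03%, 3.98% and 3.72% of the other abundant genes. A ratio of at most 2 was kept by 98.7%, 98.7% and 96.8%. Single libraries vary more than means of 2, and the chosen genes were picked for a small ratio in the other libraries. Both can make the ratios in the left-out libraries larger, and their parts were not tested. Over the 5 groups without wild type in bran plus cellulose, the shares at 1.5 or less were 74.2%, 75.9% and 72.0% for numbers 1, 2 and 3. In the other abundant genes they were 8.42%, 6.11% and 6.48%. A ratio over fewer libraries cannot be larger, so these shares could not fall. For number 3 the share was 59.9% with replicate 3 of that group in the ratio and 72.0% without it.

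**Figure D5:**
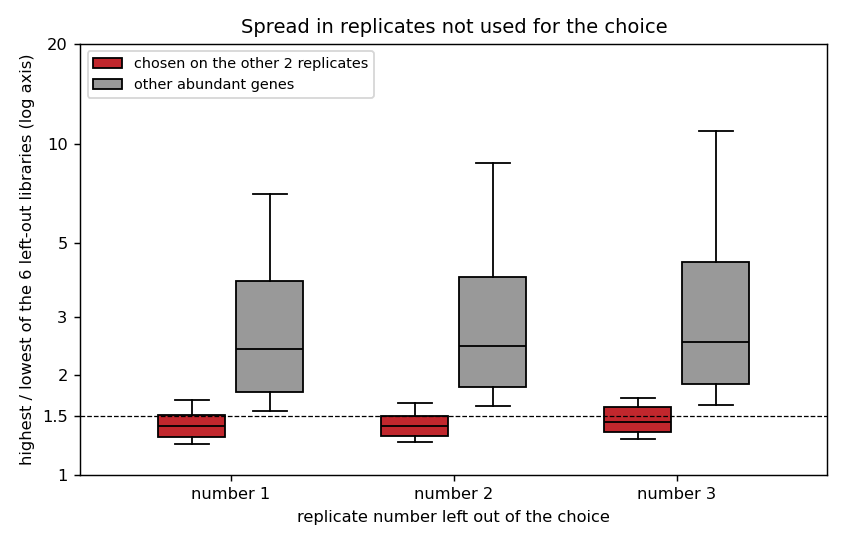
Ratio of the highest to the lowest of the 6 libraries with the left-out replicate number (vertical, log axis), for genes chosen as abundant and steady on the other 2 replicates (red) and for the other abundant genes (grey). Boxes show medians and quartiles and whiskers the 10th and 90th percentile; the medians of the chosen genes are 1.41, 1.40 and 1.45, below the 1.5 line.

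The choice of scale changed which genes counted as steady more than leaving out a library did. Of the 156 genes, 117 met both limits after median-ratio rescaling, 112 at equal library totals and 119 after quantile normalization. These settings chose 183, 148 and 138 genes in all. Leaving out any 1 of the 18 libraries kept 148 to 155 of the 156. All 3 rescalings kept 65 of the 156, and 62 of these 65 were also chosen each time 1 of the 18 libraries was left out. By their largest ratio under the deposited and the 3 other scales, PDE_03688 was the steadiest of the 62, with 1.15 as deposited and 1.22 to 1.24 otherwise; PDE_05372, named above, had 1.16 as deposited and 1.18 to 1.29 otherwise. PDE_01584, at most 1.26 on any of these scales, was chosen after its values were seen.

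The identifiers of the steady genes were spread over the whole numbering. They ran from PDE_00146 to PDE_09953, with 11 to 23 of them in each of 10 equally long blocks of locus tags. In 7 cases 2 of the 156 had consecutive numbers, which involved 14 genes, and 99 of 8387 consecutive pairs in the table were both abundant. On the deposited scale, both genes had their highest mean in the same group in 5 of the 7 pairs. How many unrelated pairs would match was not computed. The 2 GlcNAc groups alone held the highest means of 34.0% and 31.4% of the 156 genes. Among the 5 pairs were PDE_06934 and PDE_06935, at 2534 and 411 FPKM, which were highest in the deletion strain in GlcNAc. PDE_03076 and PDE_03077, at 180.1 and 255 FPKM, were another, highest in the deletion strain in glucose. For PDE_03077 this rested on 301.99 ± 17.0 FPKM there against 301.64 ± 45.4 FPKM in wild type in glucose. Consecutive numbers are taken here only as the order of the identifiers, since no coordinates of this annotation were used.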

How the data were processed

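Per the labels' protocols, mRNA was bound to oligo(dT) beads, the cDNA was cut with NlaIII and MmeI, and the resulting tags were sequenced. The table holds FPKM as the authors deposited them, per the file headers. For the derivation of FPKM from tags, as for software, build and lengths, the entry is "not given in the sources used here". Such libraries sample few sites of a transcript, so levels of different genes are less comparable than 1 gene across libraries. Depth is unknown. Low values of 826 genes were checked for whole steps: 26.1% of 1773 values lay within 0.1 of a whole multiple of the gene's lowest value, where evenly spread values give 20%, so counts were not recovered. Of all values, 13701 were 0, and 415 of these stood beside a replicate above 10 FPKM, so a 0 can be a failed estimate.

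Groups were taken from the sample titles. The 6 group means were estimated in a linear model of log2(FPKM + 1) over all 18 libraries with limma 3.58.1 (R 4.3.3), with a trended, robust prior and 12 residual degrees of freedom. It covered the 8455 genes reaching 1 FPKM in 3 or more libraries, all 156 steady genes among them. Tests were two-sided. The 7 pairwise comparisons and the test over the 6 groups were each adjusted over all genes. Plots used matplotlib 3.10.9.

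The steady genes, the lists and the comparisons were chosen with earlier results of these data known. Named genes are the 5 with the highest mean, the 5 with the smallest ratio, the 3 on each side of each limit, the 2 with the largest difference each way per comparison, and the 3 with the smallest and largest spread. Lists by gene product were void for want of names. Alternatives were other limits, pseudocounts of 0.1 and 5, no filter, 3 rescalings, a plain variance model, a replicate block, a minimum difference of 0.3 log2 units, medians for means, and leaving out libraries. The 5-group ratios were added after the data were seen.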

Additional observations from a re-analysis of the deposited data

How the results depend on the processing

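The number of steady genes was 311 with a limit of 50 FPKM, 66 with 200 FPKM, 43 with a ratio of 1.3 and 416 with a ratio of 2. It was 151 to 169 when single libraries or replicate numbers were left out. Requiring at least 0.3 log2 units beside the adjusted p left 28 calls between the strains in glucose, 48 in GlcNAc and 5 in bran plus cellulose. It left 13 for wild type in bran plus cellulose against glucose, and 33 and 23 for the deletion strain in GlcNAc and in bran plus cellulose against glucose. Leaving out single libraries gave 3 to 23 calls between the strains in bran plus cellulose and 21 to 35 for wild type in bran plus cellulose against glucose. These are counts of steady genes, and shares over all genes tested are not given for these settings. The steady genes were chosen for small differences between groups, so nothing about them is read from how far the counts moved. The share of genes kept at 1.5 or less with replicate 3 held out was 72.0% without wild type in bran plus cellulose. Why these values moved was not tested, beyond stricter limits taking fewer genes.

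The deviations of same-numbered replicates of different groups had a median correlation across genes of 0.0063, and 4 of 45 pairs exceeded 0.1. For replicates with different numbers the median was −0.0056, and 7 of 90 pairs exceeded 0.1. A batch shared by only some groups was not tested. For 8 of the 18 libraries the best correlate in another group had the same number. With the replicate block the counts of calls were 67, 76 and 20 between the strains in glucose, GlcNAc and bran plus cellulose, and 132 over the 6 groups; none of the counts moved by over 1.5 times. Pseudocounts, the filter, rescaling and the plain variance model kept the counts of calls within 1.5 times as well, though rescaling turned directions, as given above. The unknown depth leaves counting error unstated.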
